A study of Mus musculus with 7 samples.

Results

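The genes followed here are regulated by neuronal activity: the immediate early genes Fos, Fosb, Junb, Egr1, Npas4, Nr4a1 and Arc, and the neurotrophin gene Bdnf. They were chosen by name and are 8 of the 49943 gene models over which H3K9me3 was counted. Every splicing event listed for them was taken, together with H3K9me3, a histone mark of silenced chromatin, over each gene body with 5 kb either side. Of the 8 genes, 3 had a splicing event in any table: Fos, Npas4 and Bdnf. Fosb, Junb, Egr1, Nr4a1 and Arc had none, so the tables say nothing of their RNA; the tables list 9056 genes in all, each through its splicing events.

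The RNA came from wild-type primary cortical neurons of ICR mouse embryos at embryonic day 16, treated on culture day 11. The KCl group (2 libraries) was exposed for 10 min to a solution with 50 mM KCl, which depolarizes neurons, made from a buffer of 170 mM KCl. The Control group (2 libraries) had a buffer with 170 mM NaCl in its place, and both groups were returned to their old medium and harvested 24 h later. The chromatin came from the hippocampus of 3-month-old wild-type C57BL/6 mice. The enriched group (2 libraries) spent 24 h in a large cage with toys and then 1 week in the home cage, and the home cage group (1 library) stayed there. The labels do not say whether libraries come from separate cultures or animals, so every p-value here reflects spread that may be technical.

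Immediate early genes are transcribed within minutes of synaptic activity, without new protein synthesis, when calcium entry activates kinases that act on CREB, SRF and MEF2 at their promoters and enhancers. Their messages usually decay within hours, so a harvest on the day after a brief depolarization lies well past that first wave. Most of the products are transcription factors: Fos, FosB and JunB are subunits of AP-1, Egr1 is a zinc finger factor, Nr4a1 an orphan nuclear receptor, and Npas4 a neuronal factor that responds to depolarization and calcium. Arc acts at the synapse, where it promotes removal of AMPA receptors. Bdnf is a secreted ligand of the receptor TrkB and is transcribed from several promoters, each with its own first exon.

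The reads assigned to splicing events came to between 3566066 and 5385345 per RNA library, and the home cage ChIP library kept 6185524 fragments, against 13006322 and 8055983 in enriched replicates 1 and 2. The labelled cell type was checked through the best-covered event of each marker gene. Of 14 neuron markers 8 were measured, and their summed level was 7585 and 6148 CPM in the Control libraries and 619 and 2163 CPM in the KCl libraries. CPM here divides by the library's reads at the 11814 events found in both tables, between 2162614 and 2815126, scaled by the trimmed mean of M values. The 6 measured oligodendrocyte markers of 11 summed to 220 and 225 CPM in Control and 1318 and 746 CPM in KCl, and the 3 measured vascular and mesenchymal markers of 10 to 295 and 340 CPM and to 1910 and 1521 CPM. Most of that last sum was Tagln, with 277 and 311 CPM in Control and 1810 and 1445 CPM in KCl. Stmn2 was the largest part of the neuron marker sum, with 3622 and 2991 CPM in Control and 223 and 992 CPM in KCl. The 6 measured astrocyte markers of 10 summed to 2150 and 1642 CPM and to 2932 and 2254 CPM. None of 10 microglia markers had an event in both tables, and no measured marker was at 0 in all libraries. The 6 measured progenitor markers of 10 summed to 502 and 838 CPM in Control and to 906 and 1124 CPM in KCl. The summed neuron markers were thus lower, and the sums of the other measured lists higher, in the KCl libraries. By gene, all 8 neuron markers were lower, and all 6 oligodendrocyte, 3 vascular and mesenchymal and 6 astrocyte markers higher. The astrocyte marker Slc1a2 was nearly level (log2 change 0.02). Of the progenitor markers 5 were higher and 1, Dcx, was lower (-0.65). In bulk RNA, fewer cells of a type and less RNA per cell cannot be told apart, and the part of this in the results below was not tested.

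The DNA before the transcription starts was searched for motifs of activity-driven transcription. RefSeq promoter sequences of the build GRCm38.p6, which is mm10, matched 6 of the 8 genes, with 12 starts: 7 of Bdnf, numbered here in order along the gene, and 1 each of Fos, Fosb, Junb, Nr4a1 and Npas4. The 250 bases before each of 5 starts are printed, all of which carry matches to those motifs. The second Bdnf start also had the most H3K9me3 among the Bdnf starts in every library. Fosb and Junb carry a match as well and are not printed. Capitals mark matches to the motifs searched, on either strand; the last base of each is next to the start.
Fos (chr12:85473640-85473889, plus strand): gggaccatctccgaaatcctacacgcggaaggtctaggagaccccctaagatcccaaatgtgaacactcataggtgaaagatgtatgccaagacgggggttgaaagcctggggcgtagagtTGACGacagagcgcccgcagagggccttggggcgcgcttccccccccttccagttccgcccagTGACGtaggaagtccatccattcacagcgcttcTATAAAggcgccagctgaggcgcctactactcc
Npas4 (chr19:4989972-4990221, minus strand): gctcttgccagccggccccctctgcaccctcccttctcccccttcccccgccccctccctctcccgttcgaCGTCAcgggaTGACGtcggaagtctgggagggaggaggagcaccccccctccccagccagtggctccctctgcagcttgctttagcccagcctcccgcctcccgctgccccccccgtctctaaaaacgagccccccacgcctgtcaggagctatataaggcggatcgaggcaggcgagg
Nr4a1 (chr15:101266596-101266845, plus strand): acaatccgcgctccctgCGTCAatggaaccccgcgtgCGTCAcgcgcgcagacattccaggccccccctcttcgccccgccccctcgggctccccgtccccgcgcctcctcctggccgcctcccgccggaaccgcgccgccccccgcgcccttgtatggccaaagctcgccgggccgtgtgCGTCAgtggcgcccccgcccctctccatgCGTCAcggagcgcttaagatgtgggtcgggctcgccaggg
Bdnf start 2 (chr2:109676782-109677031, plus strand): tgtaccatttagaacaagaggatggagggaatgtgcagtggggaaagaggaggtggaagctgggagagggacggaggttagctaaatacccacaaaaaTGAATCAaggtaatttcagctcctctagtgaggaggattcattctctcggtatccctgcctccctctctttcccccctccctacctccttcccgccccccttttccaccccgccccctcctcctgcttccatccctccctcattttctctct
Bdnf start 3 (chr2:109692186-109692435, plus strand): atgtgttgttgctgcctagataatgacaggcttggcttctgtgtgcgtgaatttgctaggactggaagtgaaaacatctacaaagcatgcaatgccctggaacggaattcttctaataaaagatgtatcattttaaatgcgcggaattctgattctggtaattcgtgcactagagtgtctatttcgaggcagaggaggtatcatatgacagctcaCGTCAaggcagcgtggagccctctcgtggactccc

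The core of the cAMP response element, TGACG, to which CREB binds, was found before 6 of the 12 starts, against 17.8% of 32851 promoters of the same length. It stood 129 and 66 bases before the Fos start, 179 and 169 bases before the Npas4 start, 60 before Fosb and 106 before Junb, and 35 before the third Bdnf start. Nr4a1 held 4 such matches, at 233, 213, 69 and 40 bases. These counts run to the outer end of each match. The full palindrome TGACGTCA was found before none of the 12, and in 1.55% of all promoters. Fos also had a TATAAA box 33 bases before its start (12.4% of all promoters hold one). The second Bdnf start had a match to the AP-1 form TGANTCA at 152 bases (6.75%). That form was searched with any base at N, and the match here reads TGAATCA. The CArG box bound by SRF (1.47% of all promoters), the Nr4a1 element AAAGGTCA (1.34%) and the Egr1 site GCGTGGGCG (0.536%) were not found in these windows. The GC content was 74.4% before Nr4a1, 68.8% before both Fosb and Npas4, 66.4% before Junb and 58.4% before Fos, above the median of 52.4% over all promoters. Before the Bdnf starts it ran from 39.2% to 59.6%. TGACG itself holds a CG. There were 34 CG pairs before Nr4a1, 20 before Junb, 19 before Fosb, 16 before Npas4, 15 before Fos and from 1 to 13 before the Bdnf starts. The median over all promoters was 6. The share of starts with TGACG was not compared at equal CG content.

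Whether the splicing of these genes changed a day after depolarization could be asked for Fos and Npas4, whose events are in both replicate tables. The Fos event is listed as a retained intron and spans chromosome 12, 85474691 to 85475186 (mm10, 496 bases), which begins 801 bases after the start of the gene. The tables do not say whether that span is the intron alone or holds exon as well. Its inclusion form had 2 of 4 reads in Control replicate 1, 25 of 29 in Control replicate 2, 15 of 17 in KCl replicate 1 and 12 of 13 in KCl replicate 2. The inclusion read share, the inclusion reads in percent of the reads of both forms, was therefore 50.0% (95% Wilson interval 15.0 to 85.0) and 86.2% (69.4 to 94.5) in Control and 88.2% (65.7 to 96.7) and 92.3% (66.7 to 98.6) in KCl. The KCl shares both lay above the Control shares (as in 21.2% of all events), but the lowest share rests on 4 reads and its interval overlaps the other 3. The means were 68.1% ± 25.6 (SD, n = 2) and 90.3% ± 2.88. The log2 odds ratio of KCl to Control was 1.21 (SE 1.40; adjusted p 0.917, quasi-likelihood test of edgeR).

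The Npas4 event is a cassette exon of 110 bases on chromosome 19 (4987778 to 4987887, minus strand), a length that is not a multiple of 3. Its share was 76.0% (56.6 to 88.5) in Control replicate 1, with 25 reads, and 88.5% (80.1 to 93.6) in Control replicate 2, with 87 reads. In KCl replicate 1 the inclusion form had 9 of 12 reads (interval 46.8 to 91.1), and in KCl replicate 2 the share was 65.5% (52.7 to 76.4) with 58 reads. The KCl shares both lay below the Control shares (as in 19.5% of all events), narrowly in replicate 1, and only in replicate 2 do the intervals not meet. The means were 82.3% ± 8.84 (SD, n = 2) against 70.3% ± 6.71. On the log2 scale the odds ratio of KCl to Control was -1.29 (SE 0.91; adjusted p 0.772, edgeR). In the authors' deposited table the test of KCl against Control had a p of 0.00716 and an FDR of 0.404 in replicate 2 and a p of 1 in replicate 1; for Fos the p-values there were 0.207 and 0.803. Such a test compares a library with a library.

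Bdnf was listed only in the replicate 2 table, with an alternative 5′ splice site on chromosome 2 (109675897 to 109676395, 499 bases). The site begins 1197 bases after the first Bdnf start and ends before the second, which lies 2332 bases from the first. Of its reads, 11 of 12 were of the inclusion form in Control (91.7%, 64.6 to 98.5) and 1 of 2 reads in KCl (50.0%, 9.45 to 90.5), and the authors' deposited table gives a p of 0.345. Those intervals overlap widely, and with 1 library per group there is no replicate check. Those libraries had 5385345 and 4666850 event reads in all.

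**Figure D1:**
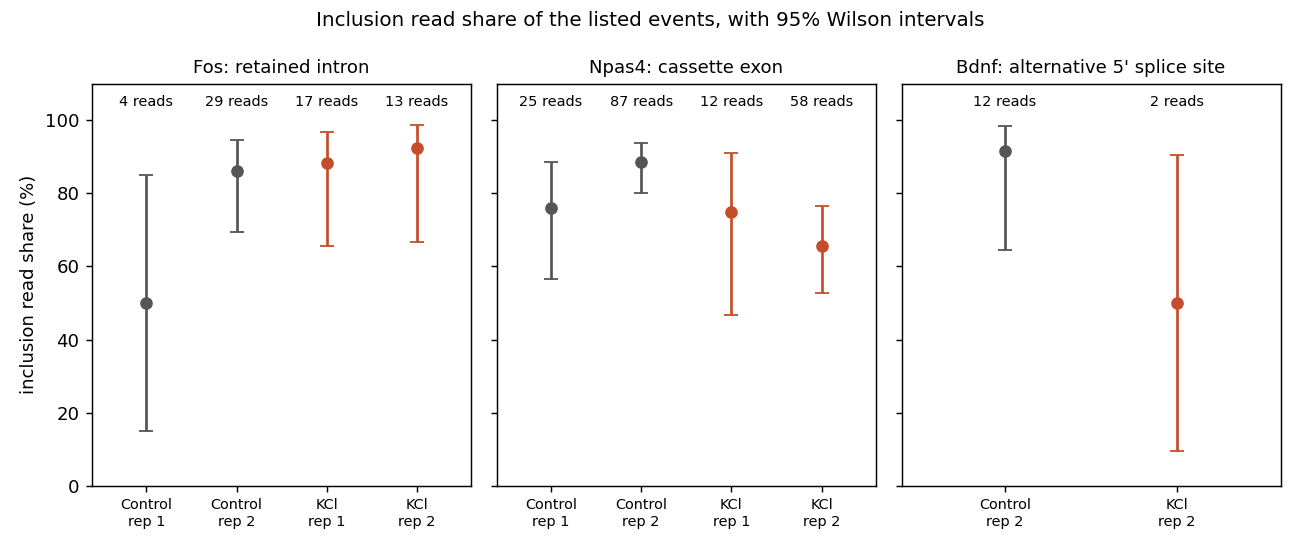
Inclusion read share in percent (y axis) of the Fos, Npas4 and Bdnf events in each RNA library (x axis; grey Control, red KCl), with 95% Wilson intervals for counting error and the reads of both forms above each point. The Control library with 4 Fos reads and the KCl library with 2 Bdnf reads have the widest intervals, and the Npas4 shares of replicate 2 are the only pair whose intervals do not meet.

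Neither event was called, and none was called over all events either: edgeR's quasi-likelihood test with Benjamini-Hochberg adjustment called 0 of 10088 (0%), DESeq2 and limma also 0, and 928 (9.2%) had an unadjusted p under 0.05 in edgeR, among them neither Fos nor Npas4. In 40.7% of all events the groups had shares that did not overlap, so the separation seen in both Fos and Npas4 is common in these tables. With a block for the replicate number edgeR called 167 events, neither Fos nor Npas4 among them. Coverage limits what can be seen. At between 4 and 29 reads the Fos event had more reads than 4.15% to 24.7% of the events of its library, and the Npas4 event, at between 12 and 87 reads, more than 14.2% to 52.5%.

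The level of the RNA was read from the reads of both forms of an event, since the tables hold no count per gene. Fos stood at 1.91 and 10.2 CPM in Control and 7.66 and 5.00 CPM in KCl. Npas4 stood at 11.9 and 30.7 CPM in Control and 5.41 and 22.3 CPM in KCl. Both groups overlapped for both genes, and for Npas4 replicate 2 was above replicate 1 in each group. The log2 change was 0.01 (SE 0.79) for Fos, from means of 6.07 ± 5.89 CPM (SD, n = 2) and 6.33 ± 1.88, and -0.62 (SE 0.76) for Npas4, from 21.3 ± 13.3 and 13.9 ± 11.9. Neither passed edgeR's quasi-likelihood test (adjusted p 0.999 and 0.858). The direction depended on single libraries: leaving out Control replicate 1 gave -0.67 for Fos, leaving out KCl replicate 1 gave -0.34, and leaving out Control replicate 2 gave 1.69. For Npas4 the change was 0.22 when Control replicate 2 was left out, 0.04 when KCl replicate 1 was, and -1.98 when KCl replicate 2 was. Over all events the test called 0 of 11814 (0%), limma 0 and DESeq2 74, and edgeR with a block for the replicate number called 1359. In the main edgeR fit 1291 (10.9%) had an unadjusted p under 0.05, and the groups did not overlap in 41.8%.

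The genes whose level followed that of Npas4 most closely over the 4 RNA libraries, by Euclidean distance of centred log2(CPM + 1) among 5697 genes, were Hdac4 (0.0425), Dlgap4 (0.134) and Trak2 (0.139). Hdac4, a histone deacetylase that moves out of the nucleus in active neurons, had 27.2 and 65.6 CPM in Control and 12.6 and 48.0 CPM in KCl. These distances rest on 4 points from the same libraries.

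The other genes of the pathway came from lists of names. Of 42 other immediate early genes 10 had a measured level, 4 higher and 6 lower in KCl, with a median log2 change of -0.14 against 0.04 over all 6114 genes (3202 higher, 2912 lower). The sign of the list's median turned to 0.07 without Control replicate 1, and it was -0.27 without KCl replicate 1. None was called by edgeR, and 1 had an unadjusted p under 0.05. That was Plk3, a stress-responsive kinase, with 16.2 and 19.4 CPM in Control and 2.70 and 8.46 CPM in KCl (log2 change -1.65, SE 0.64, edgeR adjusted p 0.429). Nr4a2, a nuclear receptor related to Nr4a1, had 23.4 and 86.5 CPM in Control and 11.7 and 23.8 CPM in KCl, so that its groups overlapped narrowly. Gadd45g, a DNA-damage-inducible gene, had higher values in KCl, with 55.8 and 24.0 CPM in Control and 173 and 56.9 CPM in KCl.

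Among splicing events of these other immediate early genes (14 tested, 0 called, 2 at an unadjusted p under 0.05 in edgeR), Homer1 had the smallest p. Homer1 makes a long scaffold form and a short activity-induced form. Its cassette exon had an inclusion read share of 86.1% and 86.8% in Control and 54.5% and 29.7% in KCl (log2 odds ratio -3.20, SE 0.91, edgeR adjusted p 0.206). Whether this exon (chromosome 13, 93386345 to 93386380) tells the long and short forms apart is not given, so its share is not read as a shift between them. No overlap between the groups, as in 40.7% of all events, was seen here, and the KCl libraries differed from each other by more than the Control libraries did. Dusp6, a phosphatase of ERK, had 98.7% and 99.6% in Control and 100% in both KCl libraries (adjusted p 0.529).

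The kinases and transcription factors that lie upstream had mostly lower values in KCl. Of 27 genes measured among 40 names, 20 were lower and 7 higher, with a median log2 change of -0.42 (-0.94 without KCl replicate 2); none was called by edgeR and 5 had an unadjusted p under 0.05. Camk4, a nuclear calcium-dependent kinase of CREB, had 31.0 and 47.6 CPM in Control and 5.86 and 8.07 CPM in KCl (log2 change -2.49, SE 0.53, edgeR adjusted p 0.411). Mef2c, an activity-dependent transcription factor, had 656 and 616 CPM in Control and 27.9 and 181 CPM in KCl. Camkk2, which activates Camk4, had 371 and 119 CPM in Control and 80.2 and 44.2 CPM in KCl. These 3 genes, named for their small p, had groups that did not overlap, as in 41.8% of all event levels, and they were lower in the KCl group, as the neuron markers were. Between the KCl libraries Camk4 and Mef2c were lower in replicate 1, where the neuron markers were lowest, but Camkk2 was lower in replicate 2. A link to the neuron markers was not tested.

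Of 66 splicing events in this list 0 were called and 4 had an unadjusted p under 0.05 (edgeR). A cassette exon of Ppp3ca, the catalytic subunit of the calcium-dependent phosphatase calcineurin, had shares of 36.5% in both Control libraries and of 9.52% and 8.85% in KCl. Its libraries agreed closely within each group, with a log2 odds ratio of -2.49 (SE 0.68) and an edgeR adjusted p of 0.165. A cassette exon of Mef2c had 98.2% and 95.5% in Control and 14.3% and 78.6% in KCl, so that its KCl libraries lay far apart. Its log2 odds ratio was -4.24 (SE 1.22, edgeR adjusted p 0.209). The reads behind the Ppp3ca and Mef2c shares are not given here, so their counting error is not shown.

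Around Bdnf itself, 19 of 30 genes for its processing, receptors and signalling had a measured level, 12 lower and 7 higher in KCl, with a median log2 change of -0.08 (from -0.32 without Control replicate 2 to -0.02 without Control replicate 1); none was called by edgeR and 3 had an unadjusted p under 0.05. Vgf, a neuropeptide precursor induced by Bdnf, had 136 and 100.2 CPM in Control and 17.6 and 44.6 CPM in KCl. Gab1, an adaptor of receptor tyrosine kinases, was higher, with 58.2 and 93.5 CPM in Control and 242 and 179 CPM in KCl. Each had an edgeR adjusted p of 0.411, and groups that did not overlap, as in 41.8% of all event levels. Of 31 splicing events 0 were called and 2 had an unadjusted p under 0.05; a cassette exon of Kidins220, a scaffold of TrkB, had shares of 35.8% and 56.3% in Control and 93.0% and 80.0% in KCl (edgeR adjusted p 0.233).

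Genes that are induced late after activity were also mostly lower: 5 of the 7 measured, with a median log2 change of -1.92, 0 called by edgeR and 5 at an unadjusted p under 0.05, against 743 of all 6114 genes. The median was -2.74 without KCl replicate 2 and -1.24 without KCl replicate 1. Besides Vgf these included Scg2, a secretogranin, with 295 and 393 CPM in Control and 65.3 and 156 CPM in KCl, and Rgs4, a regulator of G protein signalling, with 100.2 and 111 CPM against 5.41 and 39.2 CPM. The neuron markers had a median log2 change of -2.01 (8 of 8 lower) and the oligodendrocyte markers one of 2.00 (6 of 6 higher), with 0 called in either list. The median of the neuron markers was -3.35 without KCl replicate 2 and -1.32 without KCl replicate 1. The summed neuron markers were lowest in KCl replicate 1, as were the late genes named here, Vgf, Scg2 and Rgs4. A link between these late genes and the neuron markers was not tested.

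**Figure D2:**
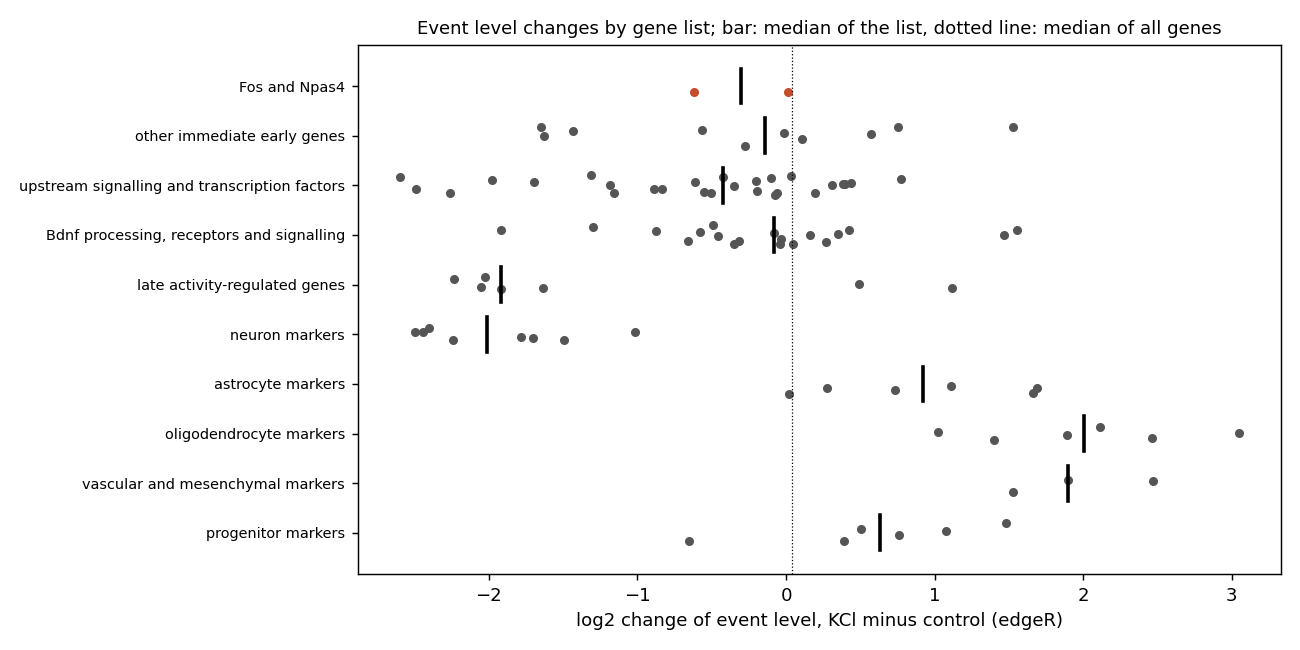
Log2 change of the event level in KCl against Control (x axis, edgeR), with 1 point per gene for the best-covered event, by gene list (y axis); bars are list medians and the dotted line is the median of all genes. Fos stands at 0.01 and Npas4 at -0.62, the late activity-regulated genes and neuron markers lie mostly to the left and the oligodendrocyte and vascular markers to the right.

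The ChIP libraries compare H3K9me3 over these genes a week after a stay in the enriched cage with that in the home cage. The deposited track averaged 0.151 over Fos with its flanks in the home cage and 0.0790 and 0.0704 in enriched replicates 1 and 2. Its scale depends on the fragment length of the library, which was 285, 207 and 238 bases, and the median over all gene models was 0.0998, 0.0728 and 0.0907. Levels are therefore given as fragments per kb divided by the median of the library's 10 kb windows, called the background here, with 95% Poisson intervals that cover counting error only. On that scale 1 is the typical level of the genome.

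None of the 8 genes was rich in H3K9me3. Their values lay between 0.441 and 1.43 times the background over the 3 libraries, all below the level of 1.48 to 1.65 times that the 90th percentile of gene models reached. The median of the 8 was 0.864 times in the home cage, 0.955 in enriched replicate 1 and 1.09 in enriched replicate 2, against 0.946, 0.976 and 0.993 over all gene models. Fosb, Junb, Nr4a1, Arc, Npas4 and Bdnf had their lowest level in the home cage, Fos had its highest there, and Egr1 was nearly level.

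The AP-1 genes went in both directions. Over Fos (chromosome 12, 85473890 to 85477274 without the flanks) there were 44 fragments in the home cage, 67 in enriched replicate 1 and 32 in enriched replicate 2, or 1.43 (1.04 to 1.92), 1.07 (0.825 to 1.35) and 0.771 (0.528 to 1.09) times the background. The home cage level was above that of 84.7% of gene models, and the enriched levels above 60.1% and 21.0%. Scaled between libraries, the ratio to the home cage was 0.716 (0.482 to 1.07) and 0.527 (0.324 to 0.851). Both enriched libraries lay lower, the second beyond counting error.

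Fosb (chromosome 7, 19302696 to 19310118) had 26, 74 and 51 fragments in the same order of libraries, or 0.649 (0.424 to 0.951), 0.904 (0.710 to 1.13) and 0.944 (0.703 to 1.24) times the background. Junb, a gene without introns (chromosome 8, 84976909 to 84978748), had the lowest level of the 8 in the home cage. Its 12, 42 and 40 fragments were 0.441 (0.228 to 0.770), 0.755 (0.544 to 1.02) and 1.09 (0.779 to 1.48) times the background, with ratios to the home cage of 1.64 (0.850 to 3.43) and 2.42 (1.24 to 5.06). Of the Junb fragments only 1, 4 and 7 lay in the gene body, and 11, 38 and 33 lay in the flanks. For both genes the enriched libraries were the higher ones. The Junb region includes part of the gene Prdx2, so its flanks are not free of other genes; those of Fosb and Arc reach the noncoding genes Gm26802 and Gm32994.

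Among the other transcription factors, Nr4a1 (chromosome 15, 101253902 to 101274795) had 45, 129 and 114 fragments, or 0.633 (0.462 to 0.847), 0.888 (0.742 to 1.06) and 1.19 (0.982 to 1.43) times the background. Its ratios to the home cage were 1.35 (0.953 to 1.94) and 1.84 (1.29 to 2.65). The enriched libraries also differed from each other, with a ratio of 1.36 (1.05 to 1.77) between the second and the first, so the step between replicates was about as large as that from the home cage to enriched replicate 1. In the 50 kb beyond the flanks on either side of Nr4a1 the levels were 0.826, 0.849 and 0.868 times the background, without such a spread. The Nr4a1 start searched for motifs, at 101266846 on the plus strand, lies inside this gene model, so part of the model is upstream of that start.

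Npas4 (chromosome 19, 4984353 to 5003439) was the highest of the 8 in both enriched libraries. It had 74, 175 and 119 fragments, or 1.11 (0.869 to 1.39), 1.28 (1.10 to 1.48) and 1.32 (1.09 to 1.58) times the background, and its 50 kb surroundings lay lower, at 0.809, 0.817 and 0.916. The Npas4 start, at 4989971 on the minus strand, also lies inside its gene model, so part of that model is upstream of the start. Egr1 (chromosome 18, 34861207 to 34864956) had 34, 65 and 46 fragments, or 1.08, 1.01 and 1.08 times the background, and hardly differed between libraries. Its gene body alone stood at 1.51, 1.53 and 1.63 times and its flanks at 0.913, 0.809 and 0.871 times, a difference in the same direction in all 3 libraries that was singled out after the values were seen and rests on 13, 27 and 19 fragments in the body.

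Arc (chromosome 15, 74669081 to 74672570) had 22, 52 and 49 fragments, or 0.709 (0.444 to 1.07), 0.820 (0.613 to 1.08) and 1.17 (0.867 to 1.55) times the background. All 3 intervals overlap. Bdnf, the longest of the 8 at 52344 bases (chromosome 2, 109674700 to 109727043), had the most fragments, 146, 324 and 212, and the narrowest intervals. Its levels of 1.02 (0.860 to 1.20), 1.11 (0.989 to 1.23) and 1.10 (0.954 to 1.25) times the background did not differ beyond counting error.

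**Figure D3:**
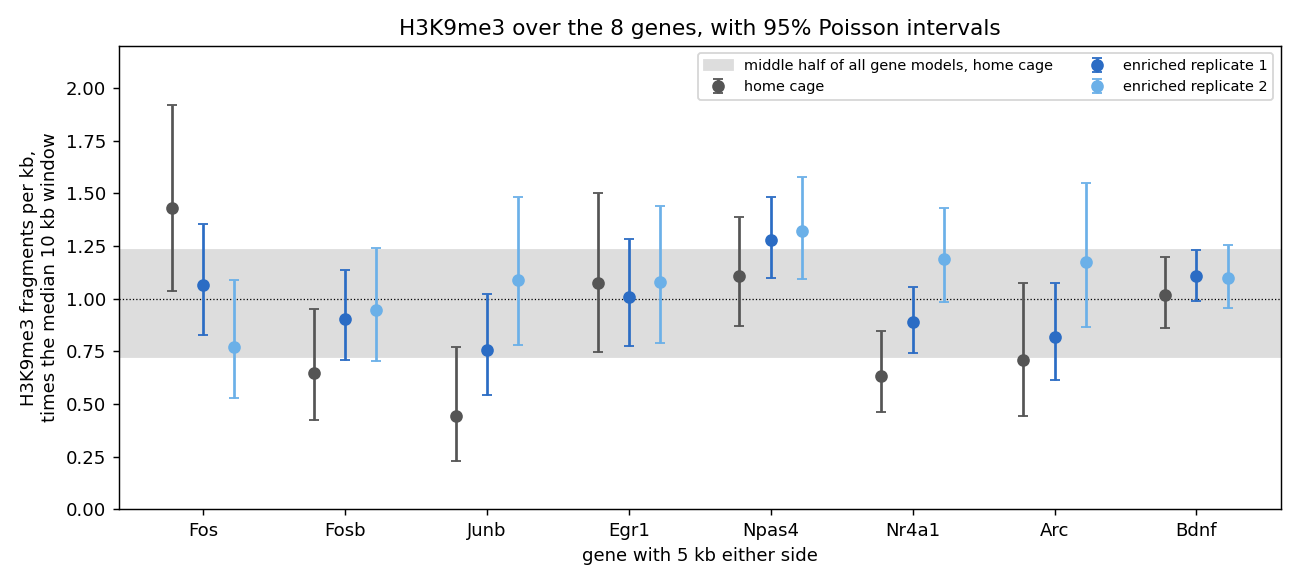
H3K9me3 fragments per kb over each gene with 5 kb either side (x axis), divided by the library's median 10 kb window (y axis), with 95% Poisson intervals; grey is the home cage library, dark and light blue the enriched replicates, and the band is the range from the 25th to the 75th percentile of all gene models in the home cage library (0.721 to 1.23). Fos has its highest point in the home cage and its lowest in enriched replicate 2, Junb, Nr4a1 and Arc have their highest point in enriched replicate 2, and the Bdnf points coincide within their intervals.

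The comparison of enriched with home cage was fitted over 46292 gene regions with limma and voom weights, taking the single home cage library to vary like the enriched ones. The log2 ratio was -0.68 (SE 0.31, unadjusted p 0.0348) for Fos, 0.92 (SE 0.44, 0.0453) for Junb and 0.61 (SE 0.29, 0.0449) for Nr4a1. It was 0.44 (SE 0.34) for Fosb, 0.38 (SE 0.38) for Arc, 0.18 (SE 0.25) for Npas4, 0.06 (SE 0.21) for Bdnf and -0.10 (SE 0.31) for Egr1. In limma 3 of the 8 thus had an unadjusted p under 0.05, against 960 (2.07%) of all regions, but the adjusted p was 1.00 for each and 0 regions (0%) were called. With libraries scaled to each other, both enriched libraries lay on the same side of the home cage in all 8 genes, 6 higher and 2 lower, against 66.4% of all regions (33.6% higher, 32.8% lower). On the scale of the background Egr1 was not on 1 side, with enriched replicate 2 level with the home cage. With 1 home cage library, the effect of the cage and of that library cannot be told apart.

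**Figure D4:**
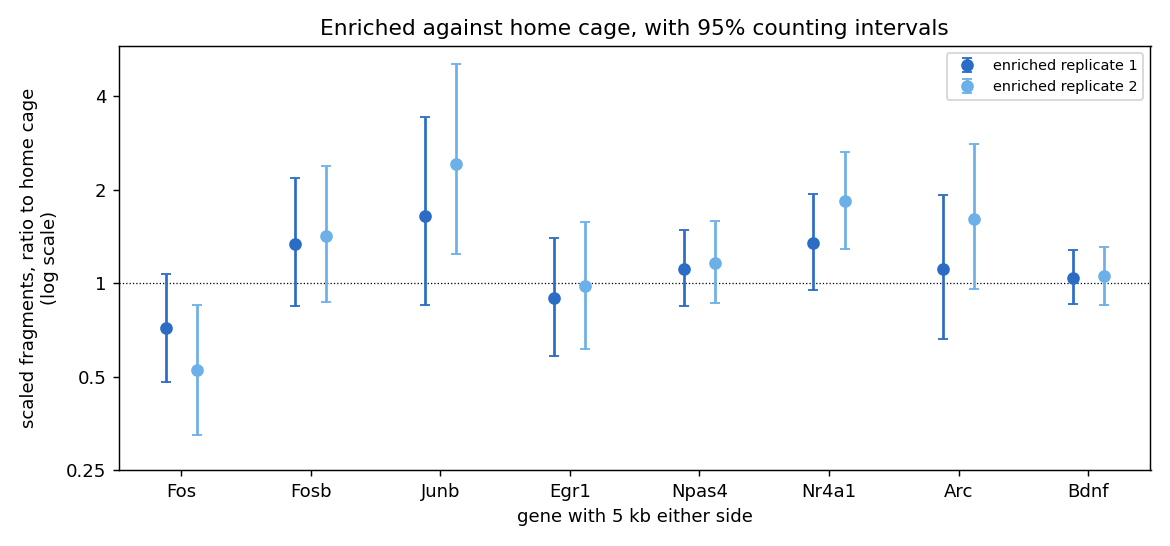
Ratio of scaled H3K9me3 fragments in each enriched library to the home cage library (y axis, log scale) for the 8 gene regions (x axis), with exact 95% intervals from the counts; the dotted line marks equality. Counting intervals leave out 1 for Fos, Junb and Nr4a1 in enriched replicate 2 and for no gene in enriched replicate 1.

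At the transcription starts the counts are smaller. Within 1 kb either side of a start the median over 32851 promoters was 4 fragments in the home cage, 9 in enriched replicate 1 and 6 in enriched replicate 2. The Fos start had 12, 13 and 5 fragments, more than 94.7%, 74.6% and 32.5% of promoters. The ratio to the home cage there was 0.509 (0.214 to 1.22) and 0.302 (0.0834 to 0.921), in the same direction as over the whole region. The Fosb start was poor in the mark, with 3, 3 and 2 fragments, and Junb had 2, 5 and 8, Nr4a1 6 in each library, and Npas4 8, 15 and 12. Scaled between libraries, the ratios to the home cage were 0.470 and 0.483 for Fosb and 0.470 and 0.725 for Nr4a1, opposite to the direction over their regions. They were 1.17 and 2.90 for Junb, in the direction of its region, and 0.881 and 1.09 for Npas4. The TGACG matches printed above lie inside these windows, and at counts this low no ratio other than that of Fos in enriched replicate 2 left out 1.

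Along Bdnf the mark was uneven. The second start, whose sequence with the AP-1 match is printed above, had 9, 27 and 22 fragments, more than 87.7%, 95.6% and 98.5% of promoters, and the first start had 7, 26 and 10. The third start, which carries the TGACG match, had 4, 10 and 10 fragments, and the starts numbered 4 and 5 had 3, 9 and 11 and 4, 15 and 15. Start 6 had 4, 9 and 7 fragments and start 7 had 5, 13 and 7. Starts 3 to 5 lie 17736, 18327 and 19709 bases after the first, so that their windows overlap and their counts are not independent. The first 2 starts thus held more fragments than the last 2 in each library.

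In 2 kb bins the 3 bins from 1 kb before to 5 kb after the first start, singled out after the values were seen, held 18, 74 and 39 fragments. That is 1.30 (0.773 to 2.06), 2.62 (2.06 to 3.29) and 2.10 (1.49 to 2.87) times the background, while the other 29 bins stood at 0.990 (0.828 to 1.17), 0.957 (0.845 to 1.08) and 1.00 (0.860 to 1.16). Since the 3 bins were chosen for their high values, this contrast with the other bins is a description, and so is their ratio to the home cage. In the home cage 27 of the other 29 bins held at least as many fragments as the lowest of the 3, against 0 and 6 in enriched replicates 1 and 2. The ratio to the home cage in these 3 bins was 1.93 (1.14 to 3.44) and 1.57 (0.878 to 2.92), against 0.929 (0.751 to 1.15) and 0.989 (0.785 to 1.25) in the rest. These intervals do not allow for the choice of bins. The listed alternative 5′ splice site of Bdnf lies inside this 5′ stretch.

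**Figure D5:**
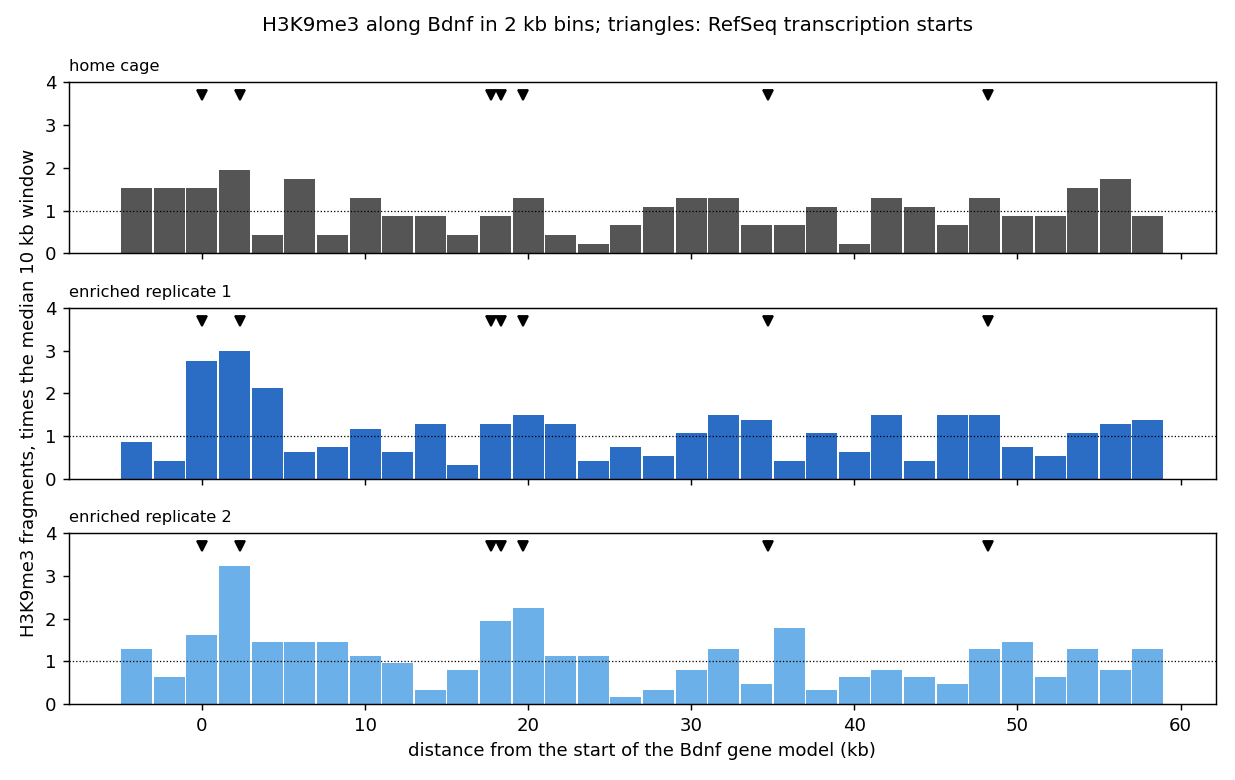
H3K9me3 fragments in 2 kb bins along Bdnf, divided by the library's median 10 kb window (y axis), against the distance from the start of the gene model in kb (x axis), 1 panel per library; triangles mark the 7 RefSeq starts. The bin with the second start is the highest in each library, at 1.96 times the background in the home cage and 2.98 and 3.23 times in the enriched libraries.

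Among the other genes of the pathway the levels of the mark varied. The 42 other immediate early genes had a median of 0.866 times the background in the home cage, 0.943 in enriched replicate 1 and 0.983 in enriched replicate 2, with Ccn1 highest at 1.77, 1.75 and 1.81. The 38 upstream genes found in RefSeq had low medians of 0.756, 0.770 and 0.889, and only 2, 3 and 8 of them lay above the median of all gene models. The 30 genes around Bdnf had 0.767, 0.820 and 0.937, with the neurotrophin receptor gene Ngfr highest in each library, at 1.88 in the home cage and 1.95 in enriched replicate 1. The 23 late genes found had 1.08, 0.990 and 1.10. The highest of them were Nrn1, at 2.14 in the home cage and 2.39 in enriched replicate 1, and Adcyap1, at 2.12 in enriched replicate 2. Ccn1, Ngfr, Nrn1 and Adcyap1 thus stood above the 90th percentile of gene models at these values. In each of these lists limma called 0 genes and 0 had an unadjusted p under 0.05, with median log2 ratios of 0.06, 0.12, 0.06 and -0.02 against -0.01 over all regions. The 8 genes had a median of 0.28.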

How the data were processed

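The authors deposited, per the file headers, read counts (whole numbers) for both forms, inclusion and skipping, of splicing events of 5 types for 4 RNA libraries, with p-values and FDRs of KCl against Control, 1 test for each pair of same-numbered libraries. For 3 ChIP libraries the files that the authors deposited hold a coverage signal. CASAVA 1.7, BWA 0.7.12, MACS2, TopHat2 and mm10 come from the submitters' processing notes, without roles; how events were counted and duplicates handled is not given in the sources used here.

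Coordinates are printed 1-based. Of the events, 11814 occurred once in each table and were kept (none of the members' events shared coordinates). Splicing (each form with a mean of at least 1 read) and event levels (mean of at least 1 read, TMM scaling) were tested with edgeR 4.0.16 in R 4.3.3, by quasi-likelihood; limma 3.58.1 and DESeq2 1.42.0 were alternatives. Standard errors of edgeR values are the change divided by the root of its F. Effective lengths and flanking exons are not given, so an inclusion read share is no percent spliced in.

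All track values were whole multiples of what 1 fragment adds (tolerance 0.01), and fragment positions were read from the steps. At most 2 fragments per start were kept and counted by midpoint over RefSeq gene models of GRCm38.p6 with 5 kb either side (minimum mean of 20 fragments). Scaling between libraries used median ratios over the 75% of 10 kb windows with the least signal, and regions were tested with limma and voom weights. Ratios carry exact binomial intervals. Adjustment was Benjamini-Hochberg over all features, with a threshold of 0.05. The main edgeR and voom fits were also run on simulated data in which 200 features changed, with results not reported here, and the alternatives were not. No input chromatin was analysed here.

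The members and gene lists were chosen with earlier results of these data known. Named from each list were any called genes, otherwise up to 3 with the smallest unadjusted p for level and 2 for splicing. A result that this rule names is not reported here. The likeness to Npas4 used best-covered events with at least its reads divided by 4. Alternatives were a replicate block, other filters, scalings, flanks and tests, and leaving out each library. Other work used Python 3.11.15, with scipy 1.17.1, numpy 2.4.6, matplotlib 3.10.9 and pandas 2.3.3.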

Additional observations from a re-analysis of the deposited data

How the results depend on the processing

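A block for the replicate number raised the edgeR calls from 0 to 167 splicing events and from 0 to 1359 event levels. The authors tested same-numbered RNA libraries against each other, but the labels do not say what such libraries share. The correlation of their deviations, 0.626, comes from 2 pairs only. No paired analysis was possible because the home cage has 1 library in the H3K9me3 comparison. The block left the Fos and Npas4 events uncalled (Npas4 level log2 change -0.70, edgeR adjusted p 0.224). DESeq2 called 74 event levels. Leaving out each RNA library in turn, edgeR called between 0 and 434 event levels (3 without Control replicate 1, 80 without Control replicate 2, 0 without KCl replicate 1, 434 without KCl replicate 2) and 0 splicing events. For H3K9me3 every alternative with a test called 0 regions. Direction turned in 4 of 24 refits of the Fos and Npas4 levels, all of them with a library left out; the leave-one-out ranges were -0.67 to 1.69 for Fos and -1.98 to 0.22 for Npas4, and the cause was not tested. The splicing changes kept their direction in 19 of 19 refits and the H3K9me3 ratios of the 8 genes in 76 of 76; 17 and 60 of these had an adjusted p, and none of them passed the threshold. The size moved more: over the tested alternatives the Junb log2 ratio ran from 0.38 with 10 kb either side to 1.23 with libraries thinned, against 0.92 in the main fit. Leaving out an enriched library gave H3K9me3 values with no test. With the gene body alone, Fos, Junb, Arc and Egr1 fell under the minimum of 20 fragments, and with a minimum mean of 5 reads of each form the Fos event was not tested. Of 72 values of H3K9me3 over the background under other flanks or with every fragment kept, 7 left the main counting interval, all with the gene body alone. Depth limits the Fos and Bdnf events most, at as few as 4 and 2 reads.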

Other observations

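Set against the summed level of the 8 measured neuron markers, a ratio computed after the data were seen, Npas4 stood at 1.57 and 4.99 CPM per 1000 neuron marker CPM in the Control libraries and at 8.73 and 10.3 in the KCl libraries. Fos stood at 0.252 and 1.66 in Control and at 12.4 and 2.31 in KCl. Both KCl libraries lay above both Control libraries for each gene on this scale, but so they did for 5690 of 6114 genes (93.1%), since the neuron marker sum was lower in KCl, so nothing particular to Npas4 or Fos is read from it.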
